A study of Vitis vinifera with 36 samples.

Results

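Among the genes that separated the grape cultivar ‘Nantaihutezao’ from its parent ‘Summer Black’ at every stage of ripening, 9 genes with strong and lasting differences are described here, of 27751 genes in the table. They were chosen from measured values: the first 4 (VIT_12s0028g00670, VIT_16s0100g00460, VIT_03s0063g01330 and VIT_18s0001g15730) had higher counts and the other 5 (VIT_03s0063g01480, VIT_18s0001g11580, VIT_15s0107g00270, VIT_08s0007g08910 and VIT_07s0005g01670) lower counts in ‘Nantaihutezao’ than in ‘Summer Black’ at all 6 stages. The difference between the cultivars at the same stage is therefore given as a description, with no test, and the tests below concern the course of each gene within a cultivar, which did not enter the choice.

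‘Nantaihutezao’ is a bud sport of ‘Summer Black’, a plant grown from a spontaneously changed shoot, and ripens earlier than its parent. The sample labels call the bud sport 11-06-25 and the parent Sanbenti, and the cultivar names were matched to them by these roles. Berries (Vitis vinifera by the labels) of 3-year-old vines from a plastic film greenhouse were picked every 7 days from veraison (S5), when berries soften and colour, to ripeness (S10), and RNA-seq was run on 3 libraries per cultivar and stage, 36 in all. By the labels, S5 is veraison for the named cultivar, S6 to S9 are 7, 14, 21 and 28 days after it, and S10 is maturity with no day given. The labels name the organ as berries and the study's methods name the pericarp. The study calls the 3 libraries biological replicates, but nothing in the sources used here says that they came from separate vines, so p-values measure only the spread between these libraries, which may be technical.

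Library totals ran between 18107267 and 20469617 counts in ‘Nantaihutezao’ and between 15323095 and 19853053 in ‘Summer Black’. All 36 libraries were most alike to a library of their own group. Replicate a of ‘Summer Black’ at S9 and replicate a of ‘Summer Black’ at S8 stood apart: the chi-square per gene against their replicates was 29.5 and 33.5 at S9 and 19.3 and 21.8 at S8, while the pair of other libraries gave 5.13 at S9 and 2.98 at S8. No replicate pair fell below 2.27, so none was a repeat of the same library. Of 11 seed storage and oil body genes, 4 had no count and the rest summed to between 6.87 and 26.2 CPM (counts scaled to a common library size) in ‘Nantaihutezao’ libraries and between 4.42 and 16.1 CPM in ‘Summer Black’ libraries. With late embryogenesis abundant genes, which other tissues also use, the list of 22 genes (5 with no count) summed to between 291 and 1853 CPM in ‘Nantaihutezao’ and between 645 and 1847 CPM in ‘Summer Black’, most of it from VIT_15s0046g02110 (mean 1093 CPM). The 44 genes picked by enzyme words linked to cuticle wax and cutin (11 with no count) were not checked for being limited to the skin. They summed to between 1041 and 1431 CPM in ‘Nantaihutezao’ and between 932 and 1215 CPM in ‘Summer Black’. Their part in the differences below was not tested, and in whole-tissue RNA fewer cells of a type and less RNA per cell cannot be told apart.

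By annotation, 8 of the 9 genes have a named match, and the families of these matches, cytochrome P450 82A3 aside, are known for the following roles. Feruloyl CoA ortho-hydroxylase opens the coumarin branch of the phenylpropanoid pathway, which in Arabidopsis leads to scopoletin, and cytochrome P450 82C4 hydroxylates a coumarin further along the same branch in Arabidopsis roots short of iron. MATE proteins are membrane antiporters that move flavonoids, alkaloids, citrate and other small molecules into the vacuole or out of the cell. Dof proteins are plant-specific zinc finger transcription factors. Zeatin O-glucosyltransferases convert cytokinins, hormones of cell division, into a reversible storage form. MSL channels open under membrane tension, and some glycine-rich proteins are structural components of cell walls.

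Annotation was uneven. VIT_03s0063g01330 matched feruloyl CoA ortho-hydroxylase 2 (F6'H2) of Arabidopsis in Swiss-Prot and carried the 2OG-Fe(II) oxygenase domain in Pfam, and VIT_16s0100g00460 matched MATE efflux family protein 5 of Arabidopsis with the MatE domain. VIT_18s0001g15730 matched Dof zinc finger protein DOF3.5 of Arabidopsis. VIT_12s0028g00670 had no Swiss-Prot and no Pfam entry, and its closest NR protein was an uncharacterized protein of cacao. Among the genes with lower counts, VIT_03s0063g01480 matched cytochrome P450 82C4 (CYP82C4) of Arabidopsis, VIT_18s0001g11580 matched cytochrome P450 82A3 (CYP82A3) of soybean, and both had the cytochrome P450 domain. VIT_15s0107g00270 matched mechanosensitive ion channel protein 10 (MSL10) of Arabidopsis, and VIT_08s0007g08910 matched zeatin O-glucosyltransferase (ZOG1) of lima bean and was placed by KEGG in zeatin biosynthesis. VIT_07s0005g01670 matched a glycine-rich cell wall structural protein of Arabidopsis with no Pfam domain, and its closest NR entry was a hypothetical protein of the mould Penicillium digitatum, so this name is weakly held. By their identifiers, the F6'H2 and CYP82C4 genes lie on the same scaffold of chromosome 3, and the Dof and CYP82A3 genes on the same scaffold of chromosome 18. The remaining 5 genes lie on chromosomes 7, 8, 12, 15 and 16.

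Levels of the 9 genes were compared with each other only in FPKM, in which the authors divided fragments by transcript length and library size. The median FPKM over all libraries was 163 for the F6'H2 gene and ran from 0.696 for the MATE gene to 6.40 for the glycine-rich protein gene in the other 8, so the highest median was 234 times the lowest. At S10 the F6'H2 gene ranked 48 of 27751 genes by mean FPKM in ‘Nantaihutezao’ and 305 in ‘Summer Black’. At S5 it ranked 6541 in ‘Nantaihutezao’ and 16998 in ‘Summer Black’. VIT_12s0028g00670 averaged 167 FPKM in ‘Nantaihutezao’ and 6.44 FPKM in ‘Summer Black’ at S10, and its highest single value was 183 FPKM in a ‘Nantaihutezao’ library. No library held more than 31.1 FPKM of any of the other 7 genes.

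**Figure D1:**
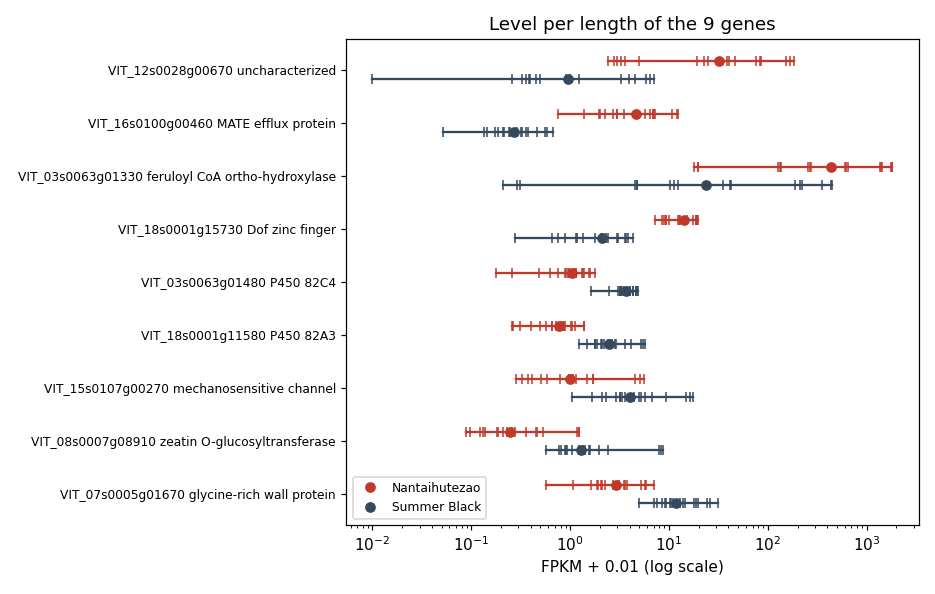
FPKM plus 0.01 on a log axis for each gene, with each library as a tick, the range as a line and the median as a dot, ‘Nantaihutezao’ above ‘Summer Black’. The F6'H2 gene had a median of 435 FPKM in ‘Nantaihutezao’ and 23.7 FPKM in ‘Summer Black’, and no other gene had a median over 31.9 FPKM in either cultivar.

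At each stage all 9 genes passed the filter on low counts, and the 54 differences of gene and stage all lay past an absolute log2 fold change of 1 and a false discovery rate (FDR) of 0.05, which the choice of the genes had fixed. Among all genes tested, S5 had 7.51% above and 8.63% below the parent, S6 2.69% above and 3.89% below, S7 3.47% above and 4.55% below, S8 2.71% above and 3.76% below, S9 3.44% above and 1.85% below, and S10 3.59% above and 5.1% below. Throughout the 6 stages 23 genes (0.159%) stayed above and 15 genes (0.104%) below. Ranked by the mean of the 6 log2 fold changes, the weakest of the 4 higher genes was the Dof gene at 2.97, just inside, and VIT_05s0077g01540 (annotated as major allergen Pru av 1) lay just outside at 2.91. VIT_14s0066g01090, annotated as Myb-related protein 305, ranked above all of them at 4.75. Of the 5 lower genes the weakest was CYP82A3 at -1.99, with VIT_12s0028g01940 (trans-resveratrol di-O-methyltransferase) just outside at -1.96.

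**Figure D2:**
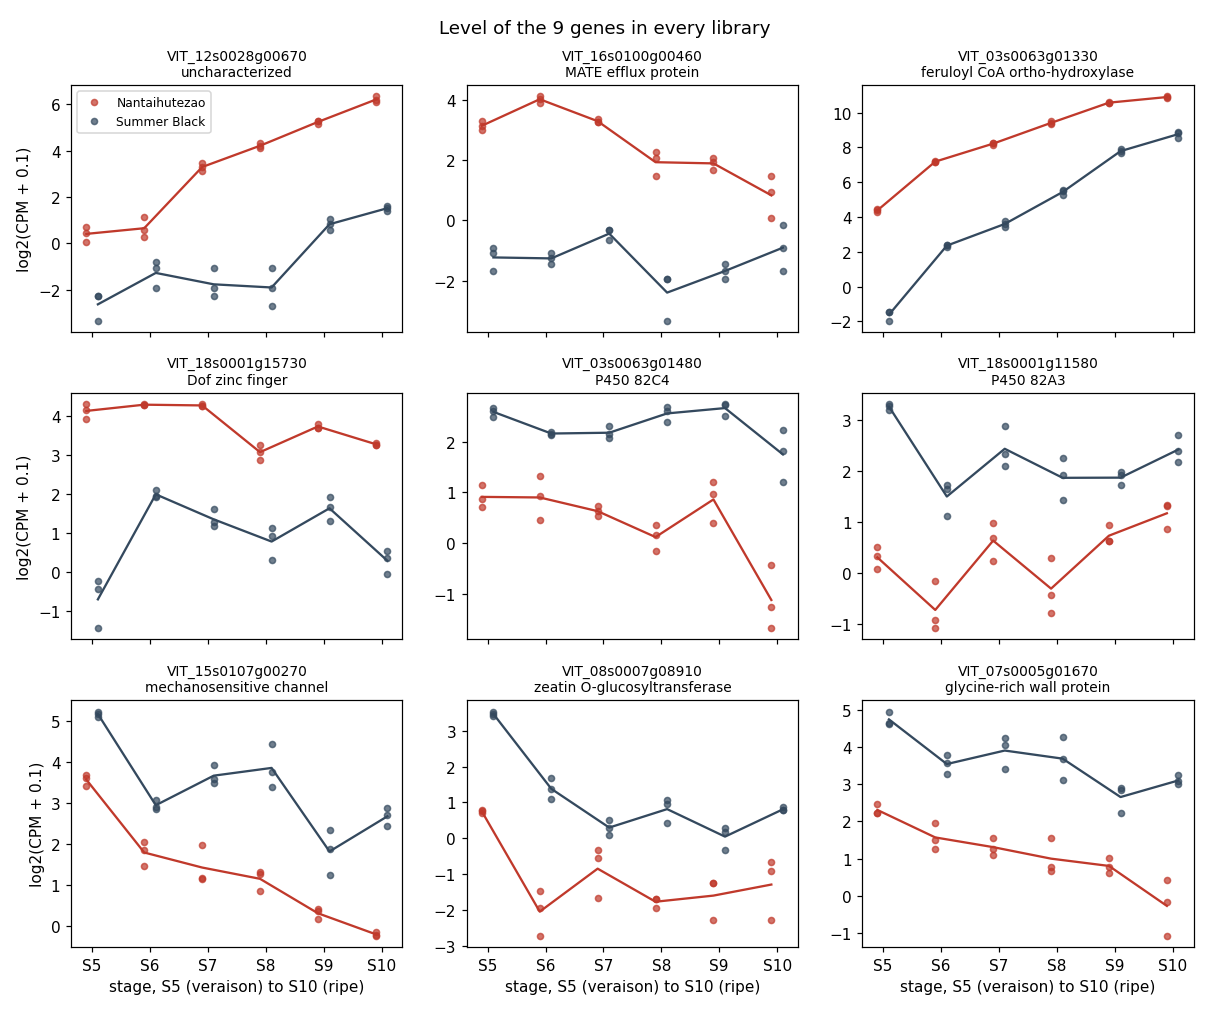
Level of each gene in every library as log2 of CPM plus 0.1 against stage, S5 to S10, with lines through the means of the 3 libraries, ‘Nantaihutezao’ left of ‘Summer Black’ at each stage. The F6'H2 gene climbed in both cultivars, and the MATE gene stayed at or below 0.809 CPM in all ‘Summer Black’ libraries.

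The F6'H2 gene, VIT_03s0063g01330, rose over ripening in both cultivars and was ahead in ‘Nantaihutezao’ at each stage. In ‘Nantaihutezao’ its 3 libraries held 19.2, 21.4 and 21.7 CPM at S5, and means of 145 ± 5.75, 298 ± 10.6, 682 ± 38.1 and 1524 ± 47.8 CPM followed at S6 to S9 (SD, n = 3), with 1866, 1894 and 1958 CPM at S10. In ‘Summer Black’ the libraries held 0.266, 0.267 and 0.159 CPM at S5, the means were 5.02 ± 0.176, 12.1 ± 1.29, 43.4 ± 4.47 and 221 ± 18.2 CPM at S6 to S9 (SD, n = 3), and S10 held 380, 452 and 482 CPM. No ‘Nantaihutezao’ library overlapped a ‘Summer Black’ library of the same stage. The log2 fold change of ‘Nantaihutezao’ over ‘Summer Black’ was 6.46 ± 0.18 (SE) at S5 and 2.12 ± 0.06 at S10, with 4.86, 4.62, 3.99 and 2.81 in stage order between them, so the distance between the cultivars was smaller at each later stage. Whether these differences changed with stage was not tested.

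Within ‘Nantaihutezao’ the S10 level of the F6'H2 gene was above the S5 level by 6.51 ± 0.06 on the log2 scale (edgeR, FDR 8.25e-28), and within ‘Summer Black’ by 10.85 ± 0.17 (edgeR, FDR 1.58e-20). The S5 libraries of ‘Summer Black’ held only 5, 5 and 3 reads, and the summed counts gave a ratio of 1899 (95% interval 1110 to 3567, counting error only). The step to S6 was the largest of the 5 steps in each cultivar, 2.81 ± 0.06 in ‘Nantaihutezao’ and 4.40 ± 0.30 in ‘Summer Black’. Later steps in ‘Nantaihutezao’ were 1.03, 1.19, 1.16 and 0.33, and those in ‘Summer Black’ were 1.28, 1.83, 2.37 and 0.98, with the last step of each below the limit of 1. The ‘Summer Black’ value of 0.98 passed without replicate a or b (1.01 in both), and the ‘Nantaihutezao’ step of 1.03 at S7 fell below 1 without replicate c (0.99).

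Set against later stages of the parent, the F6'H2 gene of ‘Nantaihutezao’ was above ‘Summer Black’ when the parent was picked 2 stages later, with 20.8 CPM at S5 in ‘Nantaihutezao’ and 12.1 CPM at S7 in ‘Summer Black’, and 682 CPM at S8 in ‘Nantaihutezao’ and 438 CPM at S10 in ‘Summer Black’. It was below when the parent was 3 stages later, as with 298 CPM at S7 in ‘Nantaihutezao’ and 438 CPM at S10 in ‘Summer Black’. Ranges were apart in all these pairs. The level in ripe ‘Summer Black’ thus lay between those of ‘Nantaihutezao’ at S7 and S8, and the ‘Nantaihutezao’ levels from S8 on were not met in any ‘Summer Black’ library.

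VIT_12s0028g00670, the gene of unknown function, also climbed in both cultivars. In ‘Nantaihutezao’ it held 0.953, 1.26 and 1.53 CPM at S5, means of 1.52 ± 0.492, 9.73 ± 1.12, 18.4 ± 1.46 and 37.6 ± 1.73 CPM at S6 to S9 (SD, n = 3), and 71.9, 80.6 and 67.9 CPM at S10. In ‘Summer Black’ it held 0, 0.107 and 0.106 CPM at S5, stayed at or below 0.478 CPM through S8, and reached 2.0, 1.4 and 1.67 CPM at S9 and 2.54, 2.97 and 2.8 CPM at S10. A called step up came at S7 in ‘Nantaihutezao’ (2.67 ± 0.17, edgeR FDR 6.98e-12) and at S9 in ‘Summer Black’ (3.07 ± 0.51, edgeR FDR 9.47e-05). A step to S6 in ‘Summer Black’ (2.14 ± 0.76, edgeR FDR 0.0198) was lost without replicate a (FDR 0.130) or replicate b (FDR 0.0862). ‘Nantaihutezao’ had another called step at S9 (1.02 ± 0.09, edgeR FDR 9.21e-09), which was 0.99 without replicate c. Its steps at S8 (0.92 ± 0.11, edgeR FDR 6.04e-07) and S10 (0.98 ± 0.09, edgeR FDR 6.33e-09) fell just short of the limit of 1. Without replicate c they were 1.01 and 1.04 and were called.

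From S5 to S10 VIT_12s0028g00670 rose by 5.86 ± 0.14 on the log2 scale in ‘Nantaihutezao’ (edgeR, FDR 7.12e-21) and by 5.16 ± 0.58 in ‘Summer Black’ (edgeR, FDR 1.20e-07). In the parent this rests on 154 reads at S10 against 4 reads at S5 over 3 libraries, a ratio of 39.0 (95% interval 14.9 to 145, counting error only). The same-stage ratio of summed counts, ‘Nantaihutezao’ over ‘Summer Black’, was 17.6 (6.59 to 66.5) at S5, 4.51 (2.72 to 7.85) at S6, 45.4 (25.8 to 88.5) at S7 and 93.0 (51.8 to 187) at S8, with 4, 19, 12 and 11 parent reads behind them. The fitted log2 fold changes at S7 (5.46) and S8 (6.51) were 6.11 without replicate b and 7.39 without replicate a of both cultivars, and the S8 value was 7.34 without only the parent library that stood apart. At S9 and S10, with more reads, the log2 fold changes were 4.49 ± 0.14 and 4.72 ± 0.10. ‘Nantaihutezao’ at S7, at 9.73 CPM, was already above every ‘Summer Black’ library of any stage, while its S5 and S6 libraries overlapped those of ‘Summer Black’ at S9 and lay below those at S10.

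The MATE gene VIT_16s0100g00460 was on in ‘Nantaihutezao’ and near the limit of detection in ‘Summer Black’. In ‘Nantaihutezao’ it held 8.73, 9.63 and 7.89 CPM at S5, 17.2, 16.4 and 14.9 CPM at S6 and 10.2, 9.48 and 9.44 CPM at S7, then means of 3.82 ± 1.04 and 3.63 ± 0.493 CPM at S8 and S9 (SD, n = 3), and 0.964, 1.81 and 2.68 CPM at S10. In ‘Summer Black’ no library held more than 15 reads, and levels ran between 0 CPM in a library of S8 and 0.809 CPM in a library of S10. All 18 ‘Nantaihutezao’ libraries were above all 18 ‘Summer Black’ libraries, a pattern that 0.0712% of genes showed. The reverse pattern, shown by 0.089% of genes, was not found in any of the 5 lower genes. The choice of the genes used these same libraries and favours such patterns, so both shares are a description with no test.

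In ‘Nantaihutezao’ the MATE gene fell by 2.27 on the log2 scale between S5 and S10 (SE 0.22, edgeR FDR 1.75e-09), with a called step at S8 (-1.35 ± 0.19, edgeR FDR 5.94e-06). In ‘Summer Black’ the S10 over S5 difference of 0.52 ± 0.54 did not pass the test (edgeR, FDR 0.394). Its step at S8 was called there (-2.52 ± 0.63, edgeR FDR 0.00493), on 6 reads at S8 and 36 at S7, and was lost without replicate b (FDR 0.0509). The F test over the 6 stages passed in ‘Summer Black’ (edgeR, FDR 0.0146) and was lost when any of replicates a, b or c was left out (FDR 0.155, 0.0787 and 0.0892). The log2 fold change of ‘Nantaihutezao’ over ‘Summer Black’ was 5.64 ± 0.18 at S6 and 1.89 ± 0.46 at S10. Without replicate c of both cultivars the S10 value was 1.42 and no longer passed the limits that chose the genes.

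The Dof gene VIT_18s0001g15730 held its level in ‘Nantaihutezao’ through S7. Its libraries held 15.1, 19.7 and 17.6 CPM at S5 and between 19.0 and 19.7 CPM at S6 and S7, then 7.23, 8.39 and 9.4 CPM at S8, 13.7, 12.9 and 12.9 CPM at S9 and 9.81, 9.48 and 9.42 CPM at S10. ‘Summer Black’ libraries held 0.639, 0.267 and 0.743 CPM at S5, a mean of 3.87 ± 0.303 CPM at S6 (SD, n = 3), and between 0.863 and 3.66 CPM after that. As for the MATE gene, every ‘Nantaihutezao’ library was above every ‘Summer Black’ library, also across stages.

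In ‘Nantaihutezao’ the Dof gene fell at S8 (-1.20 ± 0.10, edgeR FDR 9.99e-10), and its S10 over S5 difference of -0.87 ± 0.09 (edgeR, FDR 1.70e-08) was within the limit of 1. In ‘Summer Black’ it rose at S6 (2.80 ± 0.31, edgeR FDR 2.06e-07) and fell at S10 (-1.42 ± 0.28, edgeR FDR 8.32e-04), leaving S10 above S5 by 1.04 ± 0.36 (edgeR, FDR 0.0132). That last call was lost without replicate b (0.57, FDR 0.223). The log2 fold change of ‘Nantaihutezao’ over ‘Summer Black’ was 4.98 ± 0.21 at S5 and between 2.14 and 3.07 at S6 to S10.

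**Figure D3:**
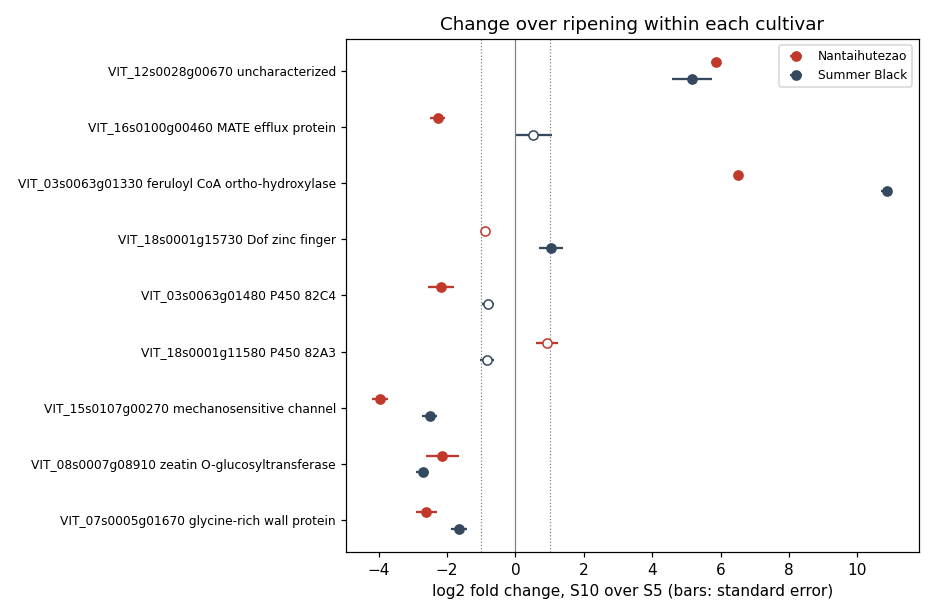
Log2 fold change of S10 over S5 within each cultivar with its standard error, ‘Nantaihutezao’ above ‘Summer Black’ for each gene, filled where FDR was under 0.05 and the change over 1. The genes for P450 82A3 and Dof lay on opposite sides of 0 in the cultivars, at 0.92 and -0.87 in ‘Nantaihutezao’ and at -0.84 and 1.04 in ‘Summer Black’.

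Over the whole course, all 9 genes changed with stage in both cultivars by the F test, as did 84.4% of genes in ‘Nantaihutezao’ and 86.9% in ‘Summer Black’. Between S5 and S10 in ‘Nantaihutezao’, 2 of the 9 rose, 5 fell and 2 did not pass, where 11.2% of all genes rose and 17.6% fell. In ‘Summer Black’, 3 rose, 3 fell and 3 did not pass, where 13.0% of all genes rose and 19.2% fell. The genes that rose in both cultivars were F6'H2 and VIT_12s0028g00670, and those that fell in both were MSL10, ZOG1 and the glycine-rich protein gene. Between S5 and S6, 1 gene rose and 3 fell in ‘Nantaihutezao’ (1.77% and 4.6% of all genes), while 3 rose and 4 fell in ‘Summer Black’ (7.4% and 10.4% of all genes).

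In the remaining steps ‘Nantaihutezao’ had 4 up at S7 (2.93% of all genes up, 4.8% down), 1 up and 2 down at S8 (1.8% up, 2.52% down), 3 up at S9 (2.49% up, 2.0% down) and 2 down at S10 (1.03% up, 2.37% down). ‘Summer Black’ had 1 up and 1 down at S7 (2.4% up, 4.31% down), the same at S8 (1.67% up, 2.92% down), 2 up and 2 down at S9 (1.8% up, 4.1% down) and 1 down at S10 (2.7% up, 1.45% down).

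The CYP82C4 gene VIT_03s0063g01480 had no called step in either cultivar before the last pick. ‘Nantaihutezao’ libraries held 2.12, 1.74 and 1.53 CPM at S5, between 0.804 and 2.4 CPM at S6 to S9, and 0.321, 0.639 and 0.214 CPM at S10. ‘Summer Black’ libraries held 5.96, 6.24 and 5.52 CPM at S5, between 4.12 and 6.58 CPM at S6 to S9, and 2.21, 4.59 and 3.4 CPM at S10. The step from S9 to S10 was -2.14 ± 0.38 in ‘Nantaihutezao’ (edgeR, FDR 1.30e-04) and -0.88 ± 0.18 in ‘Summer Black’ (edgeR, FDR 0.00109), a value within the limit of 1 except without replicate b, when it was -1.12. From S5 to S10 the gene fell by 2.18 in ‘Nantaihutezao’ (SE 0.38, edgeR FDR 1.66e-05), and the difference in ‘Summer Black’ was -0.79 ± 0.18 (edgeR, FDR 6.27e-04), or -1.03 without replicate b. The log2 fold change of ‘Nantaihutezao’ over ‘Summer Black’ lay between -1.25 at S6 and -3.10 ± 0.39 at S10.

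The other P450 gene, CYP82A3 (VIT_18s0001g11580), had no steady course. ‘Nantaihutezao’ means were 1.14 ± 0.183, 0.53 ± 0.229, 1.49 ± 0.402, 0.749 ± 0.335, 1.57 ± 0.213 and 2.17 ± 0.397 CPM from S5 to S10 (SD, n = 3), and ‘Summer Black’ means were 9.49 ± 0.396, 2.77 ± 0.603, 5.44 ± 1.59, 3.64 ± 1.04, 3.56 ± 0.339 and 5.3 ± 0.985 CPM. The fall to S6 was -1.10 ± 0.38 in ‘Nantaihutezao’ (edgeR, FDR 0.0226, lost without replicate b or c) and -1.78 ± 0.22 in ‘Summer Black’ (edgeR, FDR 7.88e-07). ‘Nantaihutezao’ then had called steps up at S7 (1.47 ± 0.37, edgeR FDR 0.00205, lost without replicate c) and at S9 (1.05 ± 0.35, edgeR FDR 0.02, lost without replicate b or c). The S10 over S5 difference was 0.92 ± 0.32 in ‘Nantaihutezao’ (edgeR, FDR 0.0122) and -0.84 ± 0.20 in ‘Summer Black’ (edgeR, FDR 0.00108), both within the limit of 1, though the parent's was -1.02 without replicate a. The distance between the cultivars was largest at S5, at -3.03 ± 0.17, and -1.16 ± 0.23 at S9 and -1.29 ± 0.21 at S10. Those last values no longer passed the limits that chose the genes without replicate b at S9 (-1.09) and without replicate a at S10 (-0.99).

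The MSL10 gene VIT_15s0107g00270 fell in both cultivars, and in each its largest step was the first. ‘Nantaihutezao’ libraries held 12.8, 10.6 and 12.2 CPM at S5, means of 3.41 ± 0.709, 2.69 ± 0.977, 2.14 ± 0.371 and 1.14 ± 0.114 CPM at S6 to S9 (SD, n = 3), and 0.804, 0.746 and 0.749 CPM at S10. ‘Summer Black’ libraries held 34.3, 36.4 and 37.6 CPM at S5, means of 7.63 ± 0.639, 12.7 ± 2.07, 15.1 ± 5.88 and 3.59 ± 1.35 CPM at S6 to S9 (SD, n = 3), and 7.28, 5.34 and 6.42 CPM at S10. The bud sport means were lower at each later stage, while the parent means at S7 and S8 were above that at S6, in steps that were not called. The parent library that stood apart at S8 held 21.7 CPM, and its replicates held 13.4 and 10.3 CPM. Without that library the S8 difference between the cultivars was -2.46, beside -2.80 with it.

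From S5 to S10 MSL10 fell by 3.94 in ‘Nantaihutezao’ (SE 0.23, edgeR FDR 3.34e-13) and by 2.50 in ‘Summer Black’ (SE 0.22, edgeR FDR 2.72e-09). The first step was -1.79 ± 0.19 in ‘Nantaihutezao’ (edgeR, FDR 6.84e-08) and -2.25 ± 0.21 in ‘Summer Black’ (edgeR, FDR 2.10e-08). ‘Summer Black’ had a further step of -2.06 ± 0.25 at S9 (edgeR, FDR 1.85e-06), which was -2.36 without the S9 library that stood apart and -1.71 without the S8 library. The same-stage difference was smallest at S6, at -1.15 ± 0.16, and largest at S10, at -3.04 ± 0.22, and the S9 value of -1.63 ± 0.32 did not pass the limits that chose the genes without replicate b.

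The ZOG1 gene VIT_08s0007g08910 fell after veraison and then stayed at a few reads in ‘Nantaihutezao’. Its libraries held 1.59, 1.53 and 1.64 CPM at S5 in ‘Nantaihutezao’ and between 1 and 13 reads at every later stage. In ‘Summer Black’ they held 11.4, 10.5 and 10.8 CPM at S5, 2.02, 2.5 and 3.1 CPM at S6, and between 0.7 and 2.0 CPM after that. The step to S6 was -3.26 ± 0.55 in ‘Nantaihutezao’ (edgeR, FDR 4.66e-05) and -2.11 ± 0.19 in ‘Summer Black’ (edgeR, FDR 7.03e-09). At S7 ‘Nantaihutezao’ had a step of 1.61 ± 0.63 (edgeR, FDR 0.0395) on 28 reads at S7 and 9 at S6, which was lost when any of replicates a, b or c was left out and without the filter on low counts. ‘Summer Black’ had a step of -1.14 ± 0.23 at S7 (edgeR, FDR 5.65e-04). From S5 to S10 the gene fell by 2.14 in ‘Nantaihutezao’ (SE 0.48, edgeR FDR 3.82e-04) and by 2.72 in ‘Summer Black’ (SE 0.20, edgeR FDR 1.45e-10).

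The same-stage difference of ZOG1 was -2.77 ± 0.14 at S5, where reads were most plentiful. At S6 the summed counts were 9 in ‘Nantaihutezao’ and 143 in ‘Summer Black’, a ratio of 0.0627 (95% interval 0.0281 to 0.122, counting error only), and the fitted value of -3.93 was -4.62 without replicate a. At S7 the difference of -1.18 ± 0.41 rested on 28 and 64 reads and did not pass the limits that chose the genes with DESeq2, or without replicate a or c (-1.32 and -0.69). At S9, without replicate b or c, the same happened (-1.71 and -1.95, beside -1.88).

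The glycine-rich protein gene VIT_07s0005g01670 had the largest mean difference of the lower genes, -2.53 over the 6 stages. ‘Nantaihutezao’ libraries held 4.55, 5.48 and 4.6 CPM at S5, means of 2.93 ± 0.784, 2.4 ± 0.415, 1.98 ± 0.74 and 1.66 ± 0.246 CPM at S6 to S9 (SD, n = 3), and 0.375, 0.799 and 1.23 CPM at S10. ‘Summer Black’ libraries held 31.0, 25.1 and 24.6 CPM at S5, means of 11.7 ± 2.07, 15.4 ± 4.31, 13.5 ± 5.4 and 6.34 ± 1.53 CPM at S6 to S9 (SD, n = 3), and 9.33, 7.88 and 8.36 CPM at S10. As for MSL10, the ‘Nantaihutezao’ means were lower at each later stage and the ‘Summer Black’ means at S7 and S8 were above that at S6. The ‘Summer Black’ steps at S7 and S8 were not called. Its libraries at S8 ran from 8.61 to 19.3 CPM, and without the highest of them the S8 mean was not above that at S6.

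From S5 to S10 the glycine-rich protein gene fell by 2.60 in ‘Nantaihutezao’ (SE 0.31, edgeR FDR 6.98e-08) and by 1.66 in ‘Summer Black’ (SE 0.24, edgeR FDR 3.34e-06). In ‘Nantaihutezao’ the step at S10 (-1.03 ± 0.35, edgeR FDR 0.0295) was lost without replicate a or b and with all libraries in a single fit. In ‘Summer Black’ the steps at S6 (-1.21 ± 0.23, edgeR FDR 1.43e-04) and at S9 (-1.08 ± 0.26, edgeR FDR 0.00276) passed, the S9 step being -0.73 without the S8 library that stood apart, -0.82 without replicate a and -0.94 without replicate c. The difference between the cultivars was largest at S10, at -3.40 ± 0.25.

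The bud sport ripens earlier, so each ‘Nantaihutezao’ stage was also set beside the later stages of ‘Summer Black’, 15 pairs a gene and 135 pairs in all. The labels count stages from veraison for the named cultivar and call S10 maturity, so whether these pairs match calendar dates is not known. In 111 pairs the ranges were apart in the direction that held at the same stage. All 15 pairs were apart for the MATE, Dof and CYP82A3 genes, 14 for CYP82C4 and the glycine-rich protein gene, 11 for VIT_12s0028g00670 and ZOG1, 9 for F6'H2 and 7 for MSL10. With ‘Summer Black’ 2 stages later, all 4 higher genes were apart at each of the 4 pairs, where 30.5%, 25.1%, 21.9% and 23.2% of all genes were above with ranges apart. Of the 5 lower genes, 3, 5, 4 and 5 were apart at S5 to S8 of ‘Nantaihutezao’, where 28.7%, 26.5%, 23.1% and 24.2% of all genes were below with ranges apart. The choice of the genes used these same libraries, so separation at later stages is partly built in and no test was made.

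The exceptions among the lower genes came mostly from S5 of ‘Nantaihutezao’. MSL10 at S5 held 11.9 CPM in ‘Nantaihutezao’, more than the 7.63 CPM of ‘Summer Black’ at S6, the 3.59 CPM at S9 and the 6.35 CPM at S10. Its S5 libraries overlapped ‘Summer Black’ at S7 and S8, and its S6, S7 and S8 libraries overlapped ‘Summer Black’ at S9. ZOG1 at S5 held 1.59 CPM in ‘Nantaihutezao’, more than the 1.14 CPM of ‘Summer Black’ at S7 and the 0.952 CPM at S9, and overlapped ‘Summer Black’ at S8 and S10. CYP82C4 overlapped only between S6 of ‘Nantaihutezao’ (1.82 CPM) and S10 of ‘Summer Black’ (3.4 CPM), and the glycine-rich protein gene only between S5 of ‘Nantaihutezao’ (4.88 CPM) and S9 of ‘Summer Black’ (6.34 CPM).

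**Figure D4:**
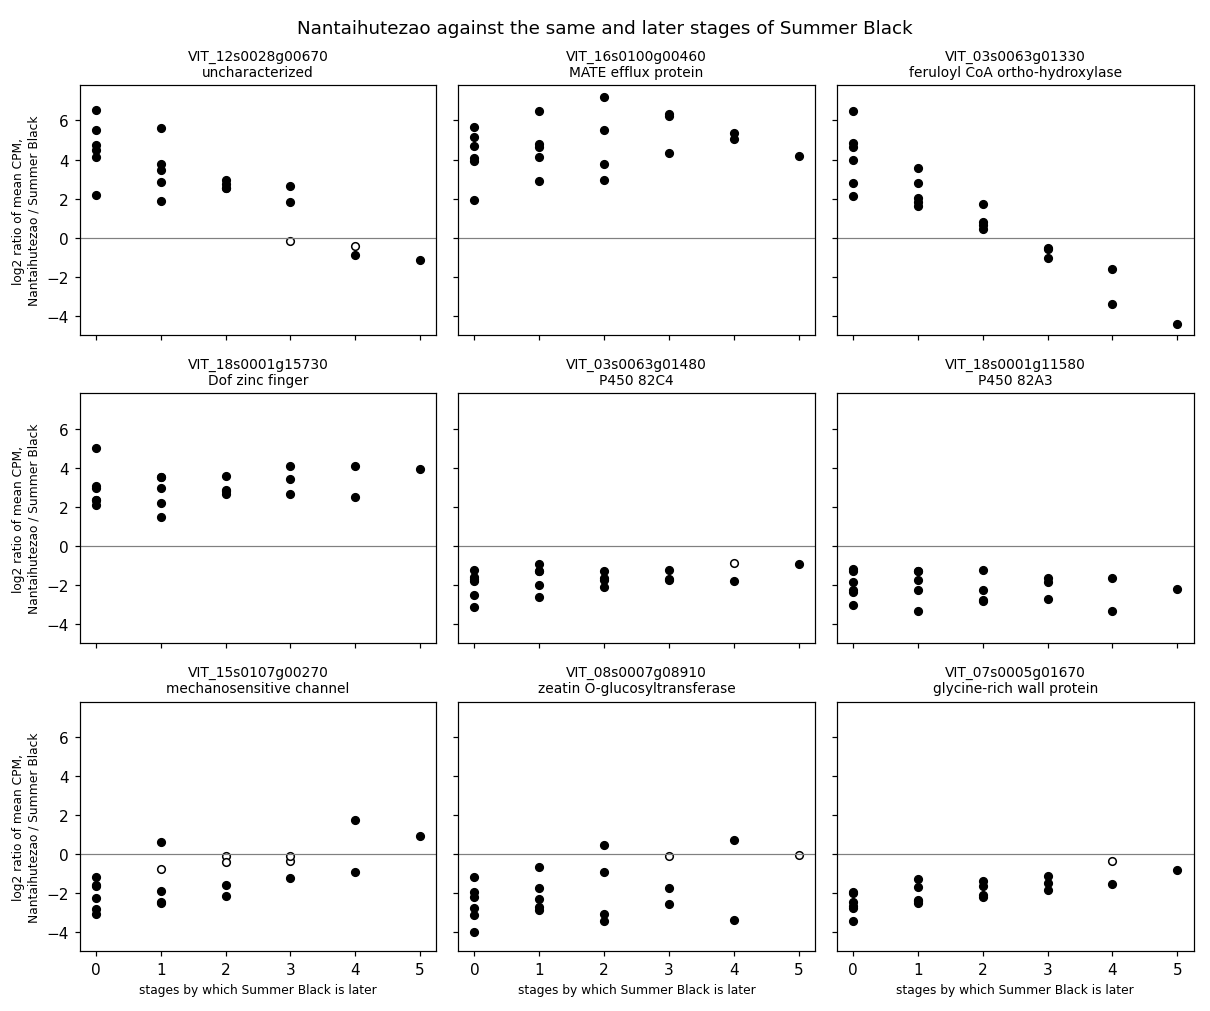
Log2 ratio of mean CPM, ‘Nantaihutezao’ over ‘Summer Black’, against the number of stages by which the ‘Summer Black’ pick is later, with each pair of stages as a dot, open where the ranges overlap in pairs of unlike stages. The MATE, Dof, CYP82A3, CYP82C4 and glycine-rich protein genes kept their side of 0 at every distance, whereas F6'H2 crossed 0 between 2 and 3 stages.

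Genes with the same Swiss-Prot name did not share one direction. Among 68 such relatives, 25 were tested at some stage and 48 of 117 tests of gene and stage passed (41.0%, where 8.57% of all such tests passed), in both directions: of 20 tested at S5, 3 lay above and 7 below the parent, and of 20 tested at S9, 6 lay above and 1 below. Their median difference ran from -0.69 at S6 to 0.41 at S9 on the log2 scale, where that of all genes was -0.01 at S6 and 0.01 at S9. None passed in the same direction at all 6 stages. How reads shared between near-identical copies were assigned is not given in the sources used here, so values of close relatives are uncertain.

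The relative of CYP82C4 with the highest mean CPM, a level not corrected for length, was VIT_09s0002g09270. It carried the same Swiss-Prot name and went the other way. Its summed counts in ‘Nantaihutezao’ were 3, 10, 56, 929, 2579 and 7319 reads at S5 to S10, and those in ‘Summer Black’ were 2, 2, 1, 3, 5 and 55 reads. It failed the filter on low counts at S5 and S6. It was higher in ‘Nantaihutezao’ at all of S7 to S10, with a log2 fold change of 7.03 ± 0.09 at S10. Its mean CPM came almost wholly from ‘Nantaihutezao’ (32.4 CPM, with 0.204 CPM in ‘Summer Black’). At S7 to S9 it passed the filter through ‘Nantaihutezao’ libraries, so these differences are a description with no test. The ratio of summed counts was 307 (95% interval 105 to 1490, counting error only) at S8 and 132 (101 to 175) at S10.

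The relatives of the other genes with the highest mean CPM differed less. VIT_03s0063g01150, another F6'H2 gene on the same scaffold, averaged 84.9 CPM in ‘Nantaihutezao’ and 68.9 CPM in ‘Summer Black’ and passed only at S5 (1.08). VIT_17s0000g02990, a MATE gene, was lower in ‘Nantaihutezao’ at 3 stages, by 1.15 to 1.34 on the log2 scale, opposite to VIT_16s0100g00460. Over all MATE relatives, 36 tests of gene and stage gave 5 above and 9 below the parent. VIT_05s0102g00590, a glycine-rich protein gene, was lower at 2 stages, and VIT_11s0016g01410 (MSL10), VIT_03s0063g01720 (CYP82A3) and VIT_08s0007g08920 (ZOG1) passed at none of the stages where they were tested. The only relative of the Dof gene, VIT_08s0105g00170, had no reads. Singled out after their values were seen, VIT_19s0090g00710 (glycine-rich protein) was lower at 5 stages, with -3.02 ± 0.56 at S8, and VIT_04s0008g01720 (MSL10) was lower at 4 stages, with -2.17 ± 0.14 at S5. VIT_02s0025g05110 (MATE), singled out in the same way, was higher at S8, S9 and S10, with 3.30 ± 0.22 at S10. It did not pass at S5, S6 or S7.

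Of the 90 genes within 5 places of a listed gene in identifier order, 49 were tested and 21 of 278 tests of gene and stage passed (7.55%, where 8.57% of all such tests passed). Of those 21, 11 came from a pair of immediate neighbours. This pair is named because each was called at 3 or more stages in 1 direction, so their values are a description. VIT_03s0063g01310, annotated as methylesterase 10 and next to F6'H2, was higher in ‘Nantaihutezao’ at all 6 stages, with 19.4 ± 0.469 CPM in ‘Nantaihutezao’ and 6.79 ± 0.254 CPM in ‘Summer Black’ at S5, and 140 ± 11.4 CPM in ‘Nantaihutezao’ and 62.5 ± 2.29 CPM in ‘Summer Black’ at S10 (SD, n = 3 each). Its log2 fold change was 2.48 ± 0.08 at S6 and 1.16 ± 0.06 at S10. VIT_18s0001g11570, next to CYP82A3 and carrying the same name, was lower at 5 stages, by 1.09 to 1.31 on the log2 scale, and at S9 its value just short of the limit did not pass (edgeR, FDR 0.0597).

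**Figure D5:**
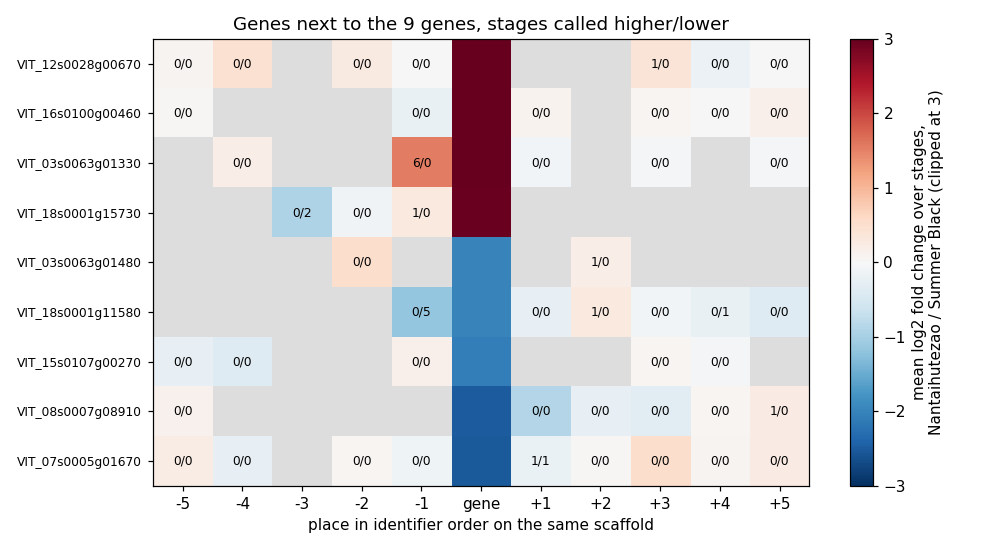
Mean log2 fold change of ‘Nantaihutezao’ over ‘Summer Black’ across stages for the 5 genes on each side of every listed gene, in identifier order, with the number of stages called higher and lower written in each field and grey for genes not tested. Among these neighbours, those called at 3 or more stages in a direction were the gene next to F6'H2 (6 stages higher) and the one next to CYP82A3 (5 stages lower).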

How the data were processed

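Berry RNA of both cultivars was made into TruSeq libraries and sequenced on a HiSeq X-ten. Reads were aligned with TopHat 2, per the study's methods, and the authors deposited read counts per gene, not normalized, and FPKM values from Cuffdiff, named in the submitters' processing notes. The study cites the Vitis vinifera reference genome, while its build number and the counting tool are not given in the sources used here. The table also holds log2 fold changes and FDR values of the authors' own comparisons, some under headers that mix library names, and these were not used. The 9 genes and all lists were chosen with earlier results of these data known.

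Counts were filtered with filterByExpr (minimum count 10), scaled by TMM and fitted in edgeR 4.0.16 (R 4.3.3) with the quasi-likelihood test, 6 libraries for a same-stage difference and 18 libraries of a cultivar for its course. FDR values were adjusted over all genes tested by Benjamini-Hochberg, and calls needed an FDR below 0.05 with a log2 fold change beyond 1 in either direction (FDR alone for the F test over stages). CPM are counts scaled by TMM library size. DESeq2 1.42.0 served as an alternative. On simulated data with 200 changed genes, the S7 comparison recovered 200 with 1 false call, and S10 against S5 in ‘Nantaihutezao’ recovered 200 with 3 false calls (fold 4). The changed genes were drawn from genes with ample reads, and all genes were given the same spread between libraries. The recovery therefore does not apply to genes with few reads. The named genes were the 9, the 2 most similar genes of each by Pearson's r of log2 CPM (prior count 2), the relative of each with the highest mean CPM where none passed at all 6 stages in 1 direction, neighbours called at 3 or more stages in 1 direction, and the genes just inside and outside the ranking among genes called at all 6 stages with ranges apart and a mean of at least 1 CPM. Relatives share the Swiss-Prot text, and neighbours follow identifier order. Seed and cuticle lists were taken by words in the Swiss-Prot text. No reference sequence was used. Interaction tests were not run because the same-stage differences chose the genes. Exact binomial 95% intervals of count ratios cover counting error only.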

Additional observations from a re-analysis of the deposited data

Results flagged for a closer look

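In VIT_18s0001g15730 (Dof) and VIT_18s0001g11580 (CYP82A3) every S10 library lay on one side of every S5 library in ‘Nantaihutezao’ and on the opposite side in ‘Summer Black’. For the Dof gene the S10 over S5 log2 fold change was -0.87 in ‘Nantaihutezao’ and 1.04 in ‘Summer Black’, and for CYP82A3 it was 0.92 in ‘Nantaihutezao’ and -0.84 in ‘Summer Black’. The difference between the cultivars in this change was not tested.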

How the results depend on the processing

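The counts of listed genes called over the course were the same with DESeq2, with the scaling of DESeq2 in edgeR, with no filter on low counts, with all 36 libraries in a single fit and with the replicate letter as a replicate block (9 changed with stage and 7 called between S5 and S10 in ‘Nantaihutezao’, 9 and 6 in ‘Summer Black’). Leaving out replicate a, b or c in turn, and for ‘Summer Black’ also the S8 or S9 library that stood apart (chosen after seeing the data), gave 7 in ‘Nantaihutezao’ and 6 to 7 in ‘Summer Black’ between S5 and S10, 9 changed with stage in ‘Nantaihutezao’ and 8 to 9 in ‘Summer Black’ (8 without replicate a, b or c, by the loss of the MATE gene), and 51 to 54 of the 54 same-stage differences past the limits. DESeq2 gave 53. Among all single course values of the 9 genes, steps included, a call was lost under an alternative 24 times and gained 20 times, and the S10 over S5 value of the MATE gene in ‘Summer Black’, not called, ran from -0.29 without replicate a to 0.95 without replicate b. The replicate block changed none of the 50 course calls and 54 same-stage differences it was tried on, and same-letter libraries did not deviate together (r between -0.0563 and 0.0758 across cultivars at a stage, 18 pairs, and between -0.0523 and 0.233 across stages of a cultivar, 90 pairs, of which 1 was over 0.1), so the letters are not taken as pairs. Other scalings gave 109 to 110 of the 111 pairs with later ‘Summer Black’ stages. Taking relatives by Pfam text gave 126 passing tests in place of 48, taking 10 neighbours on each side gave 34 in place of 21, and Spearman's rho named 4 of the 18 most similar genes, so that list depends on the measure. Few reads limit the precision of ZOG1 in ‘Nantaihutezao’ and of MATE and VIT_12s0028g00670 in ‘Summer Black’.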

Other observations

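The course of each gene was also compared with that of all 16846 genes that passed the filter over 36 libraries, by Pearson's r over the 12 means of cultivar and stage. These correlations are descriptions over 12 means that share libraries and the common course of ripening, and they include the cultivar difference that chose the genes. With each cultivar's mean removed, 2 of the 18 partners named here stayed among the 2 most similar genes, VIT_17s0053g00950 for MSL10 and VIT_01s0010g00720 for CYP82A3. The F6'H2 gene VIT_03s0063g01330 was most like VIT_03s0180g00200, annotated as a cinnamate glucosyltransferase (r = 0.995), and VIT_02s0012g02220, annotated as a xyloglucan endotransglucosylase, an enzyme of wall loosening (r = 0.99). VIT_12s0028g00670 was most like VIT_18s0001g14920 (r = 0.98) and VIT_12s0134g00030, annotated as terpene synthase 12 (r = 0.979). The MATE and Dof genes shared a near partner, VIT_06s0004g08230, annotated as root phototropism protein 2 (r = 0.937 and 0.968), which was not among the 2 most similar genes of either with the cultivar means removed, and their other partners were VIT_19s0090g00360 (r = 0.958) for MATE and VIT_18s0089g00200, a mannan mannosidase (r = 0.95), for Dof.

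Among the lower genes, MSL10 was most like VIT_17s0053g00950, annotated as a cyclic nucleotide-gated ion channel (r = 0.982), and VIT_18s0001g12770, an auxilin-related protein (r = 0.973). The glycine-rich protein gene was most like VIT_18s0001g09390, a protein phosphatase 2C (r = 0.98), and VIT_09s0054g01370, annotated as germanicol synthase (r = 0.962). CYP82C4 was most like VIT_03s0038g02440, a heavy metal-associated protein (r = 0.94), and VIT_11s0016g01490 (r = 0.92). CYP82A3 was most like VIT_01s0010g00720, a thioredoxin-like protein (r = 0.957), and VIT_01s0026g01510, annotated as sucrose nonfermenting 4-like protein (r = 0.946). ZOG1 was most like a gene with no VIT identifier (r = 0.966) and VIT_01s0127g00900 (r = 0.955).

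With each cultivar's mean removed, MSL10 and the glycine-rich protein gene stayed alike (r = 0.961 over the 12 means, and 0.935 before), F6'H2 and VIT_12s0028g00670 had r = 0.828 (0.879 before), and the MATE and Dof genes had r = 0.346 (0.879 before).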
